A study of Saccharomyces cerevisiae with 6 samples.

Results

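COX1, ATP8 and ATP6 are 3 neighbouring protein-coding genes on the plus strand of the mitochondrial genome of Saccharomyces cerevisiae. They were taken as the 3 of 10 mitochondrial protein-coding features with these names, out of 5654 features in all. RNA was measured in mitochondria isolated from strain CEN.PK113-7D, a haploid laboratory strain without auxotrophies, which all cultures shared and for which the labels name no allele or agent. The compared groups were 3 shake-flask cultures grown on ethanol, which the growth protocol describes as ethanol with glycerol, and 3 grown on glucose, all in synthetic medium and harvested while growing exponentially. The cultures are described as biological triplicates, so the replicates behind each p-value are cultures. For levels, the main test used a spread pooled over all features, not that of each gene. The RNA received an added poly(A) tail and was read as RNA on a Nanopore instrument, and each feature had 1 value per library in CPM, the share of a library's assigned reads scaled to a total of 1000000. As the mitochondria came from cell fractionation and whole-cell RNA was not measured, fewer mitochondria and less RNA per mitochondrion cannot be told apart.

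The yeast mitochondrial genome is transcribed by a single-subunit RNA polymerase from promoters with a short conserved motif, and several genes can lie on 1 primary transcript that is then cut and, for some genes, spliced. COX1 encodes the catalytic subunit of cytochrome c oxidase (complex IV), which holds the heme-copper centre that reduces oxygen. ATP8 and ATP6 encode membrane subunits of the ATP synthase (complex V). The product of ATP6 forms the proton channel together with the ring made by the product of OLI1, and the product of ATP8 is a small subunit of the stator. In the laboratory strains studied, the 3 genes are known to share a promoter before COX1, and ATP8 and ATP6 are carried on shared messages cut from the longer transcript.

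On the CEN.PK113-7D assembly of the tables, COX1 spans 14451 to 27368 (12918 bases), ATP8 28333 to 28479 (147 bases) and ATP6 29154 to 29933 (780 bases). They are separated by 964 bases between COX1 and ATP8 and by 674 bases between ATP8 and ATP6, so that the unit measures 15483 bases from the COX1 start to the ATP6 end. COX1 is listed as a single feature that runs over its introns. In the reference strain S288C (RefSeq, build R64), ATP8 and ATP6 have the same lengths as here, the COX1 span is 34 bases shorter, and its 8 coding segments, split by 7 introns, add up to 1605 bases. If the coding length is the same in CEN.PK113-7D, 12.4% of the COX1 feature is coding, and RNA from its introns, spliced out or not, was counted together with the message.

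The promoter motif ATATAAGTA was searched on both strands of the R64 mitochondrial genome, to show where a transcript of this unit could begin in that strain. It had 14 exact matches, 11 on the plus strand and 3 on the minus strand. On the plus strand, 1 match began 469 bases before the COX1 start, none lay between the COX1 start and the ATP6 end on either strand, and the next began 2943 bases after the ATP6 end. A window of 500 bases before the gene start held a match for COX1 and for neither ATP8 nor ATP6. Over all distinct mitochondrial gene starts 6 of 38 such windows held one (15.8%), against 115 of 5960 before nuclear protein-coding genes (1.93%). These counts take a match on either strand, and on the strand of the gene itself they were 6 and 65. The motif is made almost wholly of A and T, and the shares were not corrected for the base composition of either genome. They are therefore no measure of enrichment before genes. A match is a description of these letters and was not tested for use in CEN.PK113-7D.

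Plus-strand matches before COX1 and before 4 other genes are printed for comparison, 5′ to 3′ with 15 bases on each side and the motif in capitals. They lie at chrM:13334-13372 (COX1), chrM:6447-6485 (15S rRNA), chrM:34863-34901 (the tRNA gene tE(UUC)Q, which lies before COB), chrM:46056-46094 (OLI1) and chrM:57985-58023 (21S rRNA) of R64.
COX1: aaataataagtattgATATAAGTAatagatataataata
15S rRNA: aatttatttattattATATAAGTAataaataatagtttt
tE(UUC)Q: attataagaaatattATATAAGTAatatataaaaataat
OLI1: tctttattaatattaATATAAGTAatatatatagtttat
21S rRNA: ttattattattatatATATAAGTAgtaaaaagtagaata
The OLI1 line is the farther of 2 matches before that gene.

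The libraries held between 267509 and 1093126 assigned reads, as recovered from the CPM steps, and the fewest were in ethanol replicate 2. Of these reads the unit took 1195, 178 and 600.3 on ethanol against 2367, 2969 and 3591 on glucose, with 91.2% to 97.3% of its CPM on COX1. The CPM scale was set by RNA from outside the mitochondria. Cytosolic rRNA took between 37.3% and 81.5% of a library, the nuclear gene ENO2 between 2.63% and 49.9%, and all mitochondrial features between 3.15% and 12.6%, with the ends of each range among the ethanol libraries except the lowest ENO2 share. The part of these shares in the differences of level below was not tested.

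COX1 was the most abundant mitochondrial protein-coding feature by CPM in all 6 libraries, and its values were lower on ethanol. Per length of feature it ranked only 6, 5 and 5 of 10 in ethanol replicates 1, 2 and 3, and 3 of 10 in each glucose library. Ethanol replicates 1, 2 and 3 held 1362, 629.9 and 815 CPM of it, and the glucose replicates 2463, 2762 and 3181 CPM. Every ethanol library lay below every glucose library, which was also so for 41.2% of the 1693 features tested. The means were 935 ± 380.4 and 2802 ± 361 CPM (SD, n = 3), a glucose mean 3.00 times the ethanol mean. The log2 fold change, ethanol minus glucose on log2(CPM + 1), was -1.65 ± 0.99 (SE) and did not pass (limma, adjusted p = 0.224). In this fit the SE of every feature, ATP8 and ATP6 included, came wholly from a trend of spread over all features. It does not measure the spread of COX1 itself.

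ATP8 was the lowest or the second lowest mitochondrial protein-coding feature in CPM in each library. Ethanol replicates 1, 2 and 3 held 26.8, 16.8 and 6.70 CPM of it, and the glucose replicates 26.8, 23.3 and 31.4 CPM. Ethanol replicate 1 was as high as glucose replicate 1, and the groups overlapped. Few molecules stood behind these values, with 22.75, 4.5 and 4.5 reads for the ethanol libraries and 25, 24.3 and 34.3 for the glucose ones. The 95% exact Poisson interval, after rounding to whole reads, ran from 1.62 to 15.2 CPM in ethanol replicate 3 and from 17.2 to 40.7 CPM in ethanol replicate 1. Such intervals cover counting error only. The log2 fold change was -0.84 ± 1.15 (SE, limma adjusted p = 0.621), and -0.33 without ethanol replicate 3.

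For ATP6, ethanol replicates 1, 2 and 3 held 21.8, 18.7 and 72.2 CPM, and the glucose replicates 49.9, 54.7 and 73.03 CPM. Ethanol replicates 1 and 2 lay below the glucose libraries, while ethanol replicate 3 was as high as the highest of them. The ethanol values rested on 18.5, 5 and 48.5 reads, the glucose values on 46.5, 57.2 and 79.8. The interval of ethanol replicate 3, 52.7 to 94.8 CPM, lay above those of ethanol replicate 1, 13.5 to 35.01 CPM, and ethanol replicate 2, 6.07 to 43.6 CPM. The log2 fold change was -0.89 ± 1.18 (SE, limma adjusted p = 0.604), -0.54 without ethanol replicate 2 and -1.49 without ethanol replicate 3.

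None of the 3 genes passed the limma threshold, an adjusted p-value under 0.05 over all features tested, against a background of 14.2% of features called and 11.8% called lower in ethanol. All 10 mitochondrial protein-coding features were tested and none was called. Over all features the fold changes had a median of -1.44 (log2), so that on this scale COX1 fell near the middle of all features (753 of 1693 had a lower value), and ATP8 and ATP6 lay above it. Without ethanol replicate 1, COX1 passed at -1.96 on the log2 scale (limma adjusted p = 0.00774), the only one of 17 other settings in which it did, where 20.4% of features were called lower. Its SE was 0.34 there, against 0.99 with all libraries, and the median SE of all features was 0.53 against 1.14. That fit, unlike the main one, also gave weight to the spread of each feature itself. The direction of ATP8 and ATP6 depended on the scaling: they turned to log2 fold changes of 0.22 and 0.17 when each library was centred on its median, and COX1 kept its direction at -0.59. That centring moved the median of all features to -0.38, and TMM factors, a trimmed-mean scaling, to -0.04, with COX1 at -0.28.

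**Figure D1:**
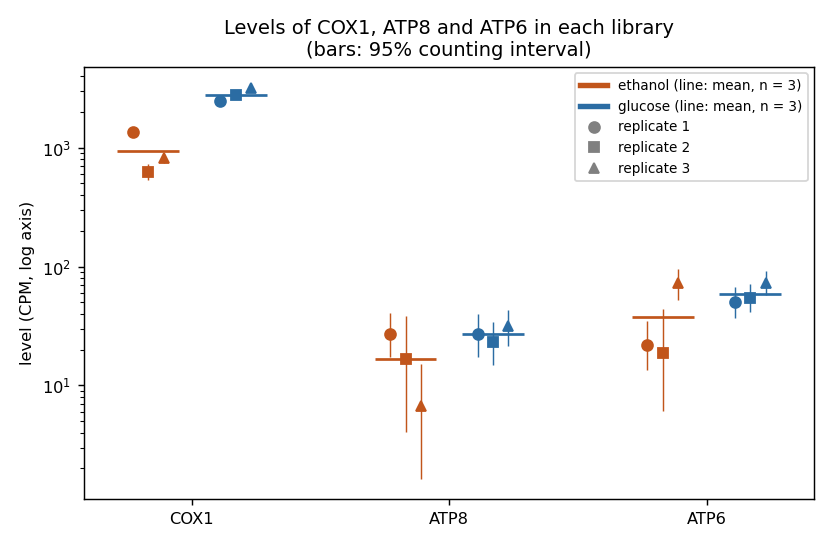
CPM of COX1, ATP8 and ATP6 in each library on a log axis, with 95% exact Poisson intervals of the reads as thin bars and group means as horizontal lines. COX1 separates the groups, with ethanol at 629.9 to 1362 CPM and glucose at 2463 to 3181 CPM, while ATP8 and ATP6 overlap and ethanol replicate 3 is lowest for ATP8 and highest of its group for ATP6.

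Levels of different genes were compared per kb of feature (CPM per 1000 bases). In glucose the order per kb was COX1, ATP8, ATP6 in each library, with 217 ± 27.9, 185 ± 27.7 and 75.9 ± 15.7 CPM per kb (SD, n = 3). COX1 and ATP8 differed by about the spread between libraries, and ATP6 lay below both. In ethanol the values were 72.4 ± 29.5 for COX1, 114 ± 68.5 for ATP8 and 48.2 ± 38.5 CPM per kb for ATP6, and the order changed between libraries. ATP8 was the highest of the 3 per kb in ethanol replicates 1 and 2, at 183 and 114 CPM per kb, and the lowest in ethanol replicate 3, at 45.6. ATP6 was the lowest in ethanol replicates 1 and 2, at 27.98 and 23.96 CPM per kb, and the highest in ethanol replicate 3, at 92.6.

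The per-kb order depends on the length given to COX1. With the R64 coding length in place of the listed span, COX1 had 583 ± 237 CPM per coding kb in ethanol and 1746 ± 225 in glucose (SD, n = 3) and exceeded ATP8 and ATP6 in every library. How much of a feature a read had to cover to be counted is not given in the sources used here. A per-kb level therefore need not be the number of molecules per gene.

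**Figure D2:**
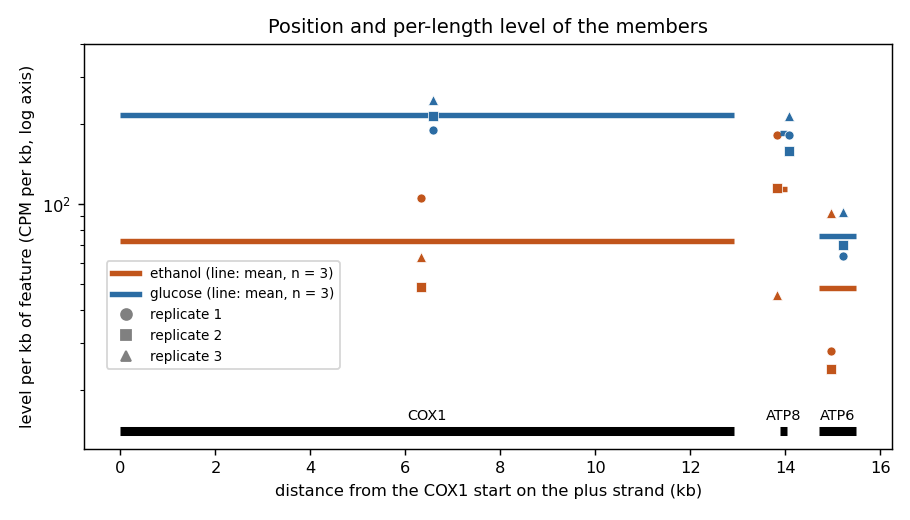
The 3 features drawn to scale (black bars) against the distance from the COX1 start in kb, with the level per kb of feature on a log axis for each library (points) and group means (coloured lines). Glucose points of COX1 lie at 191 to 246 CPM per kb, above all ethanol points of that gene, and the ethanol points of ATP8 and ATP6 spread more widely than the glucose points and overlap them (the lines of the short ATP8 lie partly under its points).

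Shares within mitochondrial protein-coding RNA do not depend on how much nuclear RNA a library held. Of the mitochondrial protein-coding CPM, the unit took 58.7%, 59.6% and 56.8% in the ethanol libraries, in the order of their numbers, and 72.6%, 74.9% and 75.4% in the glucose libraries. Both groups were narrow and did not overlap, with means of 58.4% ± 1.39 and 74.3% ± 1.46 (SD, n = 3), a difference of -15.96 percentage points (two-sided exact permutation p = 0.1, the smallest possible with 3 libraries against 3). Lack of overlap was common in this total and not particular to the unit. The shares of OLI1, VAR1, COX2, Q0255 and COX3 were higher in every ethanol library and that of SceI was lower, while COB overlapped. COX2, for example, took 4.27%, 4.18% and 6.30% on ethanol against 1.24%, 1.35% and 0.997% on glucose. The share of COX1 alone differed by -17.1 percentage points, and the shares of ATP8 and ATP6 differed by 0.32 and 0.88 points and overlapped between groups (exact permutation p = 0.4 and p = 0.8). The ATP8 difference was 0.07 points without ethanol replicate 2 and 0.61 without ethanol replicate 3, and the ATP6 difference -0.22 without ethanol replicate 3 and 1.62 without ethanol replicate 1.

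Because shares sum to a fixed total, a lower COX1 share raises the others. With COX1 taken out of the total, ATP8 and ATP6 together made up 4.67%, 7.29% and 10.4% on ethanol against 7.43%, 7.56% and 8.88% on glucose. The ethanol libraries lay on both sides of the glucose ones (exact permutation test, two-sided, p = 0.8). As a share of all mitochondrial CPM, rRNA included, ATP8 values stood lower on ethanol, without overlap (exact permutation p = 0.1). They were 0.0213%, 0.0296% and 0.0213% against 0.0358%, 0.0361% and 0.0490% on glucose, the opposite sign to its share of the protein-coding CPM. Ethanol replicates 2 and 3 held only 4.5 ATP8 reads each. The exact Poisson interval of ethanol replicate 2 ran from 4.07 to 38.3 CPM, around 16.8 CPM. That range is wide enough for the groups to overlap on the total of all mitochondrial CPM. ATP6 overlapped on that total, at 0.0173%, 0.0329% and 0.230% on ethanol against 0.0665%, 0.0848% and 0.114% on glucose (exact permutation p = 1).

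**Figure D3:**
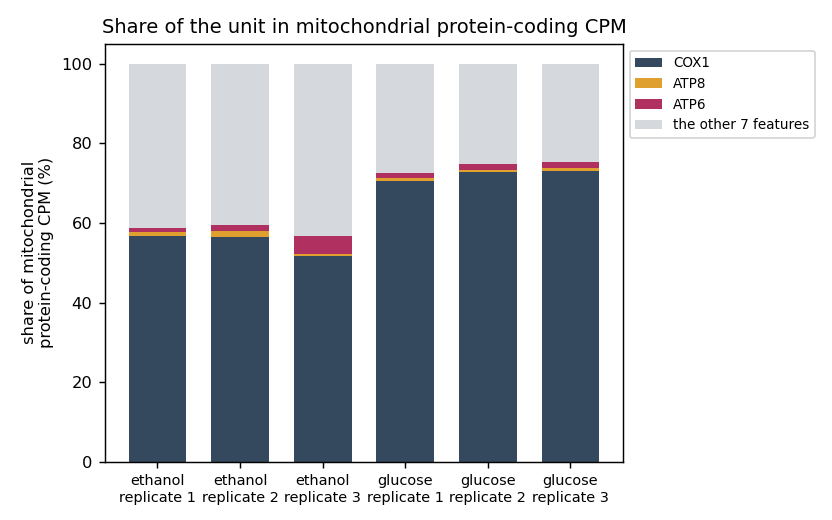
Share of each member in the mitochondrial protein-coding CPM (%) of each library, as stacked bars, with the other 7 features in grey. COX1 takes 51.8% to 56.6% in the ethanol libraries and 70.5% to 73.0% in the glucose libraries, and ATP6 forms a visible band in ethanol replicate 3, at 4.59%.

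Ratios inside the unit were close to constant in glucose and varied between the ethanol libraries. Relative to COX1, ATP8 stood at 1.97%, 2.67% and 0.822% in ethanol replicates 1, 2 and 3, against 1.09%, 0.843% and 0.987% in glucose. Ethanol replicates 1 and 2 were above the glucose libraries and ethanol replicate 3 just below them. The highest ethanol ratio was 3.25 times the lowest, against 1.29 times in glucose. Both ethanol extremes rested on 4.5 ATP8 reads. As a share of the ATP8 and COX1 reads, rounded to whole reads, ATP8 had a 95% Wilson interval of 0.908% to 5.83% in ethanol replicate 2. In ethanol replicate 3 it was 0.283% to 1.85%. These intervals overlapped each other and those of all glucose libraries. That of ethanol replicate 1, 1.31% to 2.92%, lay above that of glucose replicate 2, 0.554% to 1.22%. The log2 ratio differed by 0.75 between groups, with an SD of 0.88 in ethanol and 0.19 in glucose (exact permutation test, two-sided, p = 0.4, adjusted over the 3 ratios 0.6). It differed by 0.40 without ethanol replicate 2 and by 1.25 without ethanol replicate 3.

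Relative to COX1, ATP6 stood at 1.603%, 2.97% and 8.86% in ethanol replicates 1, 2 and 3, against 2.03%, 1.98% and 2.30% in glucose. Ethanol replicate 1 lay below the glucose range, replicate 2 above it, and replicate 3 far above it. As a share of the ATP6 and COX1 reads, rounded to whole reads, ATP6 had a 95% Wilson interval of 6.14% to 10.5% in ethanol replicate 3, while no interval of a glucose library went above 2.79%. The log2 ratio differed by 0.73 between groups (exact permutation p = 0.4, adjusted p = 0.6), by 0.06 without ethanol replicate 3 and by 1.29 without ethanol replicate 1.

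ATP6 and ATP8, with only 674 bases between them, gave the widest spread of the 3 pairs. In ethanol replicates 1, 2 and 3 the ratio of ATP6 to ATP8 was 0.813, 1.11 and 10.8, against 1.86, 2.35 and 2.33 in the glucose replicates. The 3 glucose libraries were alike, ethanol replicates 1 and 2 were lower than all of them, and ethanol replicate 3 was higher. ATP6 made up 92.3% of the reads of both genes in ethanol replicate 3 (95% Wilson interval 81.8% to 96.97%), a range that lies above the intervals of all glucose libraries, which end at 79.2% or lower, and above that of ethanol replicate 1, 31.2% to 60.1%. Ethanol replicate 2 had 9 reads in all, with an interval of 26.7% to 81.1%. The mean log2 ratio differed by -0.02 between groups (exact permutation p = 1), by -1.19 without ethanol replicate 3 and by 0.68 without ethanol replicate 1.

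**Figure D4:**
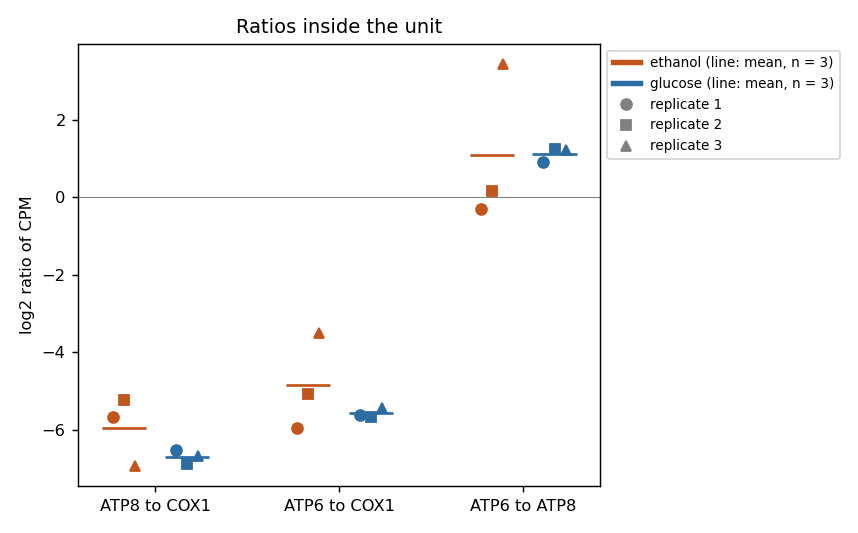
Log2 ratio of CPM for the 3 pairs of genes inside the unit, by library (points) and group mean (lines). Glucose libraries cluster for each pair, ethanol libraries spread, and for ATP6 to ATP8 ethanol replicate 3 is at 3.43 while ethanol replicates 1 and 2 are at -0.30 and 0.15.

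Some reads had been divided between features, as values in parts of a read show. The ATP8 value was a whole number of reads in glucose replicate 1 alone and held a part of 0.75 of a read in ethanol replicate 1, 0.5 in ethanol replicates 2 and 3, and 0.33 in glucose replicates 2 and 3. ATP6 had a whole number of reads in ethanol replicate 2 alone and COX1 in glucose replicate 3 alone. A part of a read could come from a read over neighbouring genes of the unit or from a read that matched several places, which the sources used here do not tell apart.

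COX1 was then set against the other mitochondrially encoded subunits of cytochrome c oxidase, since the enzyme needs all 3. COX2 carries the copper site that takes electrons from cytochrome c, and COX3 is the third core subunit. In ethanol replicates 1, 2 and 3 the CPM ratio of COX1 to COX3 was 10.9, 16.05 and 18.2, against 44.6, 46.2 and 52.2 in the glucose replicates. Every ethanol library lay below every glucose library, with a log2 difference of -1.69 (two-sided exact permutation p = 0.1, adjusted over 11 ratios 0.157). For COX1 to COX2 the ethanol libraries gave 13.3, 13.5 and 8.23 and the glucose libraries 56.7, 53.97 and 73.2, a log2 difference of -2.42 (exact permutation p = 0.1, adjusted p = 0.157). COX2 itself averaged 82.8 ± 31.3 CPM on ethanol against 46.03 ± 4.46 on glucose, and COX3 69.6 ± 47.9 against 58.7 ± 3.02 (SD, n = 3), and neither passed (limma adjusted p = 0.667 and 0.983). The ethanol mean of COX3 rested on replicate 1, at 124.9 CPM. Ethanol replicates 2 and 3, at 39.3 and 44.7 CPM, lay below every glucose library, and without replicate 1 the log2 fold change of COX3 was -0.48, from 0.04.

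COB encodes cytochrome b and is the other protein-coding gene listed as 1 feature over its introns. In ethanol replicates 1, 2 and 3 the ratio of COX1 to COB was 6.58, 7.27 and 2.86, against 5.32, 6.58 and 7.63 in the glucose replicates. Ethanol replicates 1 and 2 lay within the glucose range and ethanol replicate 3 below it (log2 difference -0.32, exact permutation p = 0.7), and without that library the log2 difference was 0.10.

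OLI1 encodes the ring subunit that works with the products of ATP6 and ATP8. ATP8 stood at 7.36%, 10.1% and 4.74% of OLI1 in ethanol replicates 1, 2 and 3, against 15.8%, 14.2% and 16.3% on glucose, lower in every ethanol library (log2 difference -1.12, exact permutation test, two-sided, p = 0.1, adjusted over 11 ratios 0.157). Ethanol replicates 2 and 3 held only 4.5 ATP8 reads each. ATP6 stood at 5.99%, 11.2% and 51.05% of OLI1 on ethanol, against 29.3%, 33.3% and 37.9% on glucose. Ethanol replicates 1 and 2 were lower than all glucose libraries and ethanol replicate 3 was higher (log2 difference -1.14, exact permutation p = 0.4). The difference was -0.48 without ethanol replicate 1 and -2.02 without ethanol replicate 3.

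Against the mitochondrial rRNAs, COX1 and ATP8 were lower in every ethanol library and ATP6 was not. COX1 stood at 9.99% ± 3.52 of the 21S rRNA in ethanol and 38.8% ± 4.62 in glucose (SD, n = 3, log2 difference -2.01, exact permutation p = 0.1). ATP8 stood at 0.160% ± 0.0408 and 0.379% ± 0.0794 of the 21S rRNA, and ATP6 at 0.531% ± 0.613 and 0.812% ± 0.0557 with overlap (exact permutation p = 0.4). The log2 difference for ATP6 was -1.28, -0.65 without ethanol replicate 1 and -2.22 without ethanol replicate 3. For the 15S rRNA the log2 differences were -1.41 for COX1 and -0.66 for ATP8, each without overlap, and -0.68 for ATP6 with overlap (-1.82 without ethanol replicate 3 and 0.13 without ethanol replicate 1). Of the 11 ratios to genes outside the unit, the 7 without overlap all had an adjusted p of 0.157 (exact permutation test), and no adjusted p could pass 0.05 with 3 libraries a group. Those 7 reuse the values of COX1 and ATP8 against a few shared genes, so they are not independent results. The ATP8 ratios among them rest on 4.5 ATP8 reads each in ethanol replicates 2 and 3. How often ratios of other gene pairs lack overlap was not computed.

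**Figure D5:**
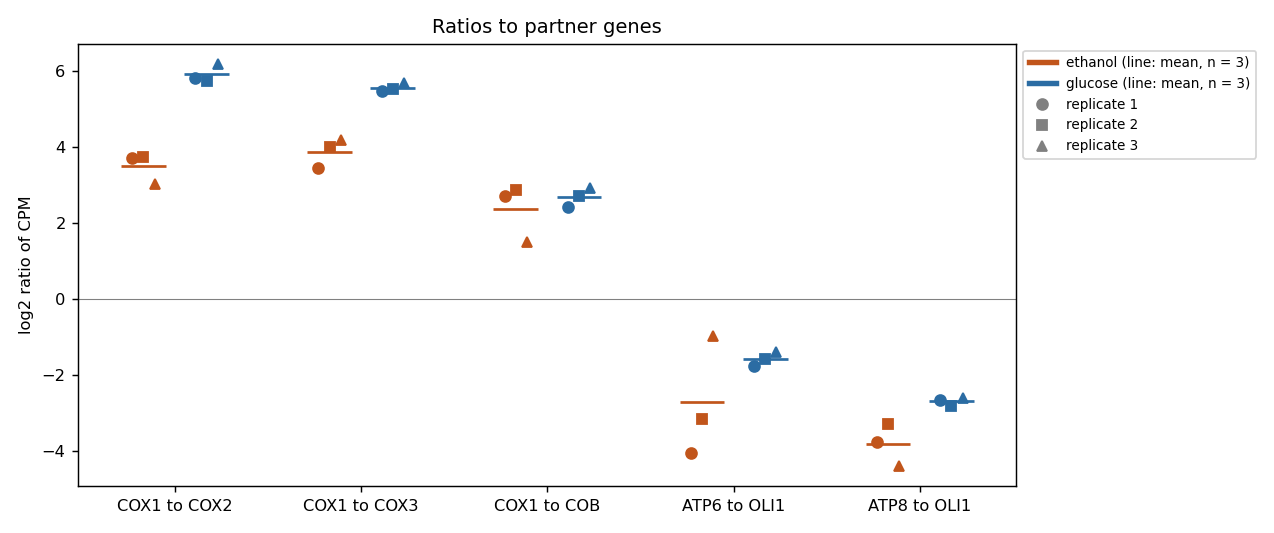
Log2 ratio of CPM of the members to partner genes encoded elsewhere on mitochondrial DNA, by library (points) and group mean (lines). The groups are apart for COX1 to COX2, COX1 to COX3 and ATP8 to OLI1, and overlap for COX1 to COB and ATP6 to OLI1, where ethanol replicate 3 lies above glucose at 51.05% of OLI1.

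The patterns of the 3 genes over the 6 libraries were compared with Pearson's r of log2(CPM + 1), given as a description, since the libraries fall into 2 groups and share their scaling. Among features that averaged 50 CPM or more, SceI was the most like COX1 (r = 0.99), followed by HXT4 (r = 0.92) and TPO2 (r = 0.89). SceI is the reading frame of a homing endonuclease inside the intron of the 21S rRNA gene, HXT4 encodes a hexose transporter and TPO2 a polyamine exporter. For ATP8 the closest were the 15S rRNA (r = 0.83), SceI (r = 0.77) and COX1 (r = 0.71). For ATP6 they were nuclear genes, NOG2 (r = 0.96), which encodes a GTPase of ribosome assembly, MEP2 (r = 0.93), an ammonium permease, and SSA2 (r = 0.93), a cytosolic Hsp70. HXT4 and SSA2 belong to families of near-identical genes, and reads may have been assigned to the wrong member. Inside the unit, ATP6 had r = 0.54 with COX1 and r = -0.17 with ATP8.

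SceI, as the feature most like COX1, stood at 93.9, 41.1 and 44.9 CPM in ethanol replicates 1, 2 and 3, against 160.4, 191 and 293 CPM in the glucose replicates. As for COX1, ethanol replicate 1 was the highest and replicate 2 the lowest of its group, and glucose replicate 3 was the highest library of all. NOG2 stood at 42.5, 11.2 and 344 CPM on ethanol, against 121, 241 and 258 CPM on glucose. It shared with ATP6 a high value in ethanol replicate 3, the library that also had the largest share of nuclear RNA other than rRNA and ENO2 in its group, at 9.39% against 0.977% and 7.14%.

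Of the nuclear genes listed for expression of these genes or assembly of their enzymes, most were too low to test. Among factors for COX1 expression and complex IV assembly, 19 of 20 were found, 7 had a mean of at least 10 CPM, and none was called. The 7 tested had a median log2 fold change of -0.86 beside -1.44 for all features. All 7 were below 0 on this scale, but 3 when libraries were centred on their median (median 0.20) and 4 without ethanol replicate 1 (median -0.36). The largest was that of MSS116, an RNA helicase needed for splicing of mitochondrial introns, which averaged 10.5 ± 12.9 CPM on ethanol against 43.2 ± 7.48 on glucose (SD, n = 3, log2 fold change -2.55, limma adjusted p = 0.104). The MSS116 values rested on 2, 1 and 17 reads in ethanol replicates 1, 2 and 3, and on 33, 46 and 55 in the glucose replicates. Of factors for ATP8 and ATP6 expression and for ATP synthase assembly, 11 of 13 were found and only ATP11 was tested (log2 fold change -0.77, limma adjusted p = 0.647). ATP11 is a chaperone for assembly of the catalytic F1 part, so no factor acting on the ATP8 or ATP6 message was tested. The direction of ATP11 turned to 0.62 without ethanol replicate 1 and to 0.29 after centring. Of 7 genes for mitochondrial transcription and RNA processing 2 were tested, and the larger change was that of RPO41, the mitochondrial RNA polymerase, at -1.87 (limma adjusted p = 0.227). RPO41 had 0, 2 and 15 reads in ethanol replicates 1, 2 and 3, against 22, 16 and 25 in the glucose replicates. The median of both tested genes was -1.60, and -0.46 without ethanol replicate 1. Without ethanol replicate 3, 3 of the 7 COX1 factors and both of the transcription genes were called lower, where 38.9% of all features were.

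The nuclear-encoded subunits of both enzymes had positive log2 fold changes for the most part, to an extent that depended on single libraries. For complex IV, 8 of 10 subunits were found and tested, none was called, and the median log2 fold change was 1.26. COX7 had the largest value, with 10.6, 56.1 and 68.5 CPM in ethanol replicates 1, 2 and 3 against 13.9, 6.70 and 10.98 CPM on glucose (log2 fold change 1.69, limma adjusted p = 0.288). For complex V, all 17 listed genes were tested, none was called, and the median was 0.89, with 3 below 0. INH1, which encodes an inhibitor of ATP hydrolysis by the enzyme, had the largest value at 1.84 (limma adjusted p = 0.236), with 8.26, 37.4 and 37.2 CPM on ethanol against 6.44, 4.78 and 5.95 CPM on glucose. In both genes ethanol replicate 1 stood nearest to or within the glucose libraries. Centring each library on its median gave 7 of 8 and 14 of 17 called higher, where 16.8% of all features were. Leaving out ethanol replicate 1 gave 6 and 12, where 10.6% were. Without ethanol replicate 3 none was called, the complex IV median was 0.62 with 2 of 8 below 0, and the complex V median was 0.14 with 7 of 17 below 0.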

How the data were processed

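The authors deposited CPM values, 1 table per carbon source with 3 replicates each, on a CEN.PK113-7D assembly per the file headers. The submitters' processing notes name STAR 2.5.4a, SAMtools, featureCounts and edgeR without roles; read filters are not given in the sources used here. No value column was without a sample. Identical cytosolic rRNA copies (11 and 2) were summed, and 2 features listed under a pair of classes were used a single time. CPM steps gave whole reads (within 0.001 read) for 89.1% to 94.9% of nonzero values, too few for a count test. Levels were tested with limma 3.58.1 in R 4.3.3, with a trend, on log2(CPM + 1), keeping features that averaged 10 CPM or more; p-values were adjusted by Benjamini-Hochberg over every feature kept. The fit was also run on simulated libraries that shared a common profile apart from set changes. As the ethanol libraries differ widely in composition, that run cannot show how the fit does here. The log2(CPM + 1) scale understates changes of low genes. Ratios used CPM without a pseudocount, and ratios and shares had two-sided exact permutation tests (Python 3.11.15, scipy 1.17.1). The members and gene lists were chosen with earlier results of these data known. Genes named were the members, their mitochondrial partners, the 3 features most like each member and, per list, the gene that changed most in size. List names were also matched through RefSeq synonyms (R64). Other settings tried were a pseudocount of 0.1 or 10 CPM, a filter at 50 CPM or none, other scalings, no trend, a replicate block and leaving out each library. One further scaling was added after seeing the data.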

Additional observations from a re-analysis of the deposited data

How the results depend on the processing

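Of 265 values recomputed under other settings, 15 changed sign. The 265 include counts of features called, which have no sign. They also include settings that change only the test, such as the replicate block, another filter or no trend, which left COX1 at -1.65. COX1 stayed lower in ethanol in all 17 settings run for it, from -1.96 (without ethanol replicate 1, where it passed) to -1.40 (without ethanol replicate 2) when a library was left out, and ATP8 and ATP6 passed in none of 16. Under a scaling chosen after seeing the data, with separate totals for nuclear and for mitochondrial features, COX1 was at -1.50 (limma adjusted p = 0.184), ATP8 at -0.71 and ATP6 at -0.73, with 291 features called. ATP8 and ATP6 turned positive when libraries were rescaled to mitochondrial protein-coding features (0.35 and 0.34), by TMM factors (0.51 and 0.45) or centred on the median (0.22 and 0.17), and at a mean of 50 CPM neither was kept. The number of features called, 241, was 381 with a pseudocount of 10 CPM, 532 without a filter, 71 at 50 CPM, 6 and 29 when rescaled to mitochondrial or mitochondrial protein-coding features, 526 with TMM factors and 714 when centred. Leaving out a library gave 4 to 712: 525, 35 and 712 without ethanol replicates 1, 2 and 3, and 4, 4 and 5 without glucose replicates 1, 2 and 3. The replicate block gave 9. Same-numbered libraries had deviations with r = -0.082, -0.029 and 0.014, and different-numbered ones had r from -0.0655 to 0.094. The labels do not say whether a number marks a shared batch, and these values cannot decide it. Centring gave 7 complex IV and 14 complex V subunits called. With a library left out the range was 0 to 6 and 0 to 12 for these, 0 to 3 for the COX1 factors and 0 to 2 for the transcription genes. Log2 differences changed sign between -1.19 and 0.68 for ATP6 to ATP8, -0.57 and 0.10 for COX1 to COB (0.0013 for medians) and -1.82 and 0.13 for ATP6 to the 15S rRNA, as did the ATP6 share, between -0.22 and 1.62 percentage points. The ATP8 share differed by -0.0162 points when taken of all mitochondrial CPM. The causes were not tested. Depth limits ATP8 and ATP6 most, with 4.5 and 5 reads in ethanol replicate 2. Taking the coding length of COX1 leaves differences between groups as they are, by construction.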
